A study of Mus musculus with 31 samples.

Results

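Livers of ERRα-/- and WT mice collected 4 h after an insulin injection were compared by RNA-seq, to ask how loss of the nuclear receptor ERRα changes hepatic gene expression once insulin has been given. The comparison holds 7 of the 31 samples of the series, chosen by their labels: the 4 WT livers numbered 1 to 4 and the 3 ERRα-/- livers numbered 1, 2 and 4. All were C57BL/6N mice on a normal diet that had been fasted for 12 h overnight and injected intraperitoneally with 1 unit of insulin per kg. The study's methods describe 2- to 3-month-old male littermates unless otherwise specified. The ERRα allele was deleted in the whole body, so an effect of its loss in hepatocytes cannot be told apart from an effect of its loss in other tissues. Each labelled liver was treated as 1 replicate. Beside them stand 8 livers of other mice given saline after the same fast, 4 WT and 4 ERRα-/-, and 8 livers of another experiment with WT mice and ERRα3SA mice, whose ERRα is stabilized by serine-to-alanine changes.

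ERRα is an orphan nuclear receptor that works with the coactivators PGC-1α and PGC-1β, encoded by Ppargc1a and Ppargc1b. It is known for binding near nuclear genes of the respiratory chain, ATP synthase and the TCA cycle. In the fed liver, insulin acts through AKT to restrain FoxO1, which drives genes of glucose output such as Pck1, G6pc and Igfbp1, and to raise SREBP-1c, which drives lipogenic genes such as Fasn and Scd1.

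The WT livers after insulin had total counts of 38518400, 35871419, 38856911 and 40590962, in the order of their numbers, and the ERRα-/- livers 1, 2 and 4 had 40067603, 39188721 and 38156804. WT liver 2 stood apart from the other 6. On the first principal component of log2 CPM (counts scaled to a common library total), which held 32.81% of the variance, it lay at 87.6, and the others lay between −34.4 and −1.3. It had counts for 14507 genes, against 15896 to 16591 in the others. Genes of the mitochondrial genome took 1.88% of its counts, against 3.88, 4.05 and 4.17% in WT livers 1, 3 and 4. Its median difference from the mean of the other 6 livers, in log2(CPM + 1), was 0.98 over 16 acute phase genes, 0.71 over 18 ATP synthase subunits and −0.84 over 12 mitochondrial genome transcripts, and −0.0060 over all 13665 genes tested. The comparison was therefore run with all 7 livers and again without WT liver 2, and values are those with all 7 livers unless stated. On the second component, with 18.61% of the variance, the ERRα-/- livers lay between 13 and 44.7, WT livers 1, 3 and 4 between −32.7 and −23.3 and WT liver 2 at −4.

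**Figure D1:**
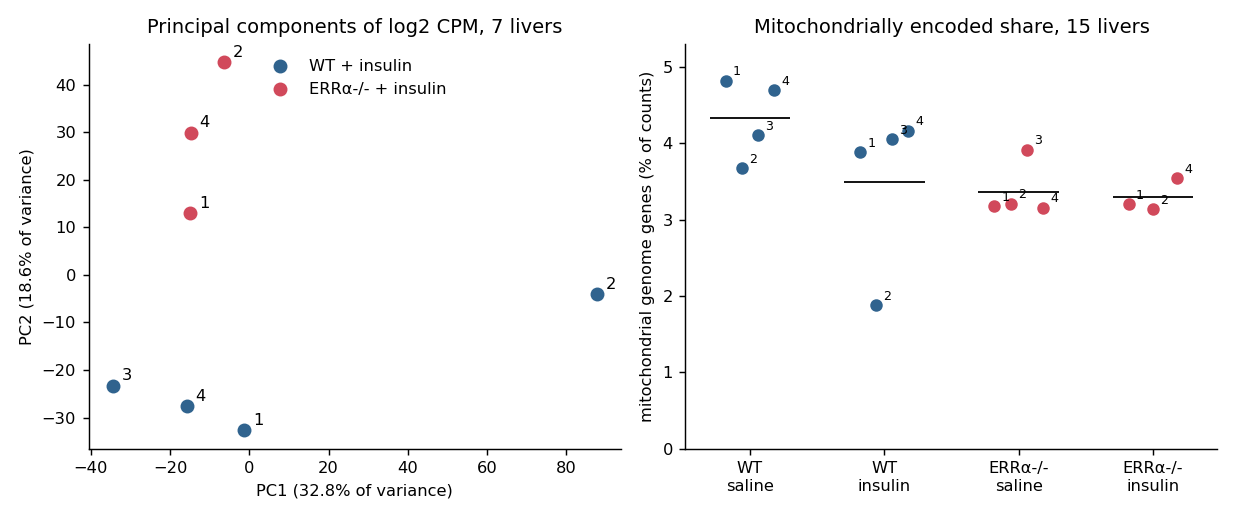
Left, the first and second principal components of log2 CPM in the 7 livers after insulin, each point a liver with its number. Right, the share of counts on mitochondrial genome genes in all 15 livers of the insulin experiment (%), with the group mean as a line. WT liver 2 after insulin lies at 87.6 on the first component and at 1.88%, below each of the other 14 livers.

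The deleted gene was near 0 in the livers labelled ERRα-/-. Esrra (ENSMUSG00000024955, GRCm38 chr19:6910977-6921813, minus strand) had 53.2, 96.5, 55.4 and 58.3 CPM in WT livers 1 to 4 and 0.819, 0.568 and 0.295 CPM in ERRα-/- livers 1, 2 and 4. The ranges did not overlap, and the highest value was that of WT liver 2. The log2 fold change was −6.86 (SE 0.37, edgeR adjusted p = 3.55e-05), and without WT liver 2 it was −6.62 (SE 0.27, edgeR adjusted p = 1.45e-05). The coactivator genes did not pass the test. Ppargc1a had a mean of 41.2 ± 21.8 CPM in WT livers (SD, n = 4) and 52.1 ± 5.72 in ERRα-/- livers (SD, n = 3). For Ppargc1b the means were 9.13 ± 6.1 and 6.24 ± 1.36 CPM, with WT liver 1 alone at 18.3. Esrrg, which encodes the related receptor ERRγ, and Nrip1, a corepressor gene, had log2 fold changes of 0.26 (SE 0.52) and −0.069 (SE 0.22).

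Differentially expressed genes (DEGs) are those with a fold change of 1.2 or more, either way, and a p under 0.05 before adjustment. Of 13665 genes tested, 1365 were DEGs. DEGs with lower expression in ERRα-/- livers numbered 741 (5.42% of the genes tested) and those with higher expression 624 (4.57%). After Benjamini-Hochberg adjustment over all genes, 8 genes (0.0585%) had an adjusted p under 0.05 by edgeR, 4 higher and 4 lower. Without WT liver 2 there were 1778 DEGs among 13486 genes, 970 lower (7.19%) and 808 higher (5.99%), and 48 genes (0.356%) passed the adjusted threshold, 25 lower and 23 higher. All 8 genes were among the 48, and 1120 DEGs were shared with the same direction. The adjusted count depended on the tool and on single livers. DESeq2 gave 248 genes, and the count fell to 3 without ERRα-/- liver 1, to 4 without ERRα-/- liver 2 or WT liver 4, and to 5 without WT liver 1 or ERRα-/- liver 4. Without ERRα-/- liver 2 the number of DEGs was 818. In the text below, genes that passed the adjusted threshold are said to rise or fall, and the other DEGs are said to have higher or lower expression.

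The 4 genes that rose had roles outside the respiratory chain. Unc13b, which encodes a protein of vesicle priming, had 13.1, 6.25, 6.76 and 6.73 CPM in WT livers and 47.9, 38.8 and 46.6 CPM in ERRα-/- livers. Every ERRα-/- liver lay above every WT liver, of which liver 1 was the highest, and the log2 fold change was 2.44 (SE 0.25, edgeR adjusted p = 0.00525). Lrtm1, encoding a leucine-rich repeat membrane protein, rose from 5.13 ± 0.801 CPM (SD, n = 4) to 19.9 ± 2.33 CPM (SD, n = 3), a log2 fold change of 1.96 (SE 0.18). Ifi27, an interferon-inducible gene with close relatives in the genome that reads may not tell apart, rose from 41.8 ± 3.94 to 88.8 ± 9.21 CPM. Egfr, the receptor for epidermal growth factor and an abundant hepatocyte transcript, had 549, 566, 564 and 485 CPM in WT livers and 1031, 1272 and 1049 CPM in ERRα-/- livers. Its groups were far apart relative to their spread, with a log2 fold change of 1.05 (SE 0.13, edgeR adjusted p = 0.0228).

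Beside Esrra, 3 genes fell. Cdh1 (chr8:106603351-106670246), which encodes E-cadherin and is a marker of periportal hepatocytes, had 34.6, 30, 45.6 and 36.4 CPM in WT livers and 2.46, 5.08 and 3.24 CPM in ERRα-/- livers. This was a 10.2-fold lower level, with no overlap, and a log2 fold change of −3.35 (SE 0.26, edgeR adjusted p = 0.000791). Fuom, encoding fucose mutarotase, fell from 14.4 ± 4.98 CPM (SD, n = 4) to 3.75 ± 0.575 CPM (SD, n = 3), with WT liver 2 the highest at 21.4 CPM. Atp5g1 (chr11:96068852-96075670), which encodes a c subunit of ATP synthase, had 69, 90.5, 71.5 and 83.8 CPM in WT livers and 40.3, 28.8 and 38.4 CPM in ERRα-/- livers. Its log2 fold change was −1.13 (SE 0.16), and its edgeR adjusted p of 0.0498 lay just inside the threshold. Among the genes just outside, Cycs and Atp5o had an edgeR adjusted p of 0.0506. Over the 14 alternatives of the processing, Esrra, Cdh1 and Lrtm1 passed in 14, Unc13b in 13, Ifi27 in 9, Fuom in 8, Egfr in 7 and Atp5g1 in 6, with edgeR or DESeq2 adjusted p-values up to 0.425 (Fuom). In saline livers of other mice, Cdh1 had a log2 fold change of −2.98, Unc13b of 1.87, Ifi27 of 1.11, Lrtm1 of 0.98, Fuom of −0.93 and Atp5g1 of −0.52, all DEGs there, and Egfr one of 0.32, which was not a DEG. The difference between those effects for Egfr, tested as an interaction, was 0.74 (SE 0.41, edgeR adjusted p = 0.614), or 0.75 without WT liver 2.

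**Figure D2:**
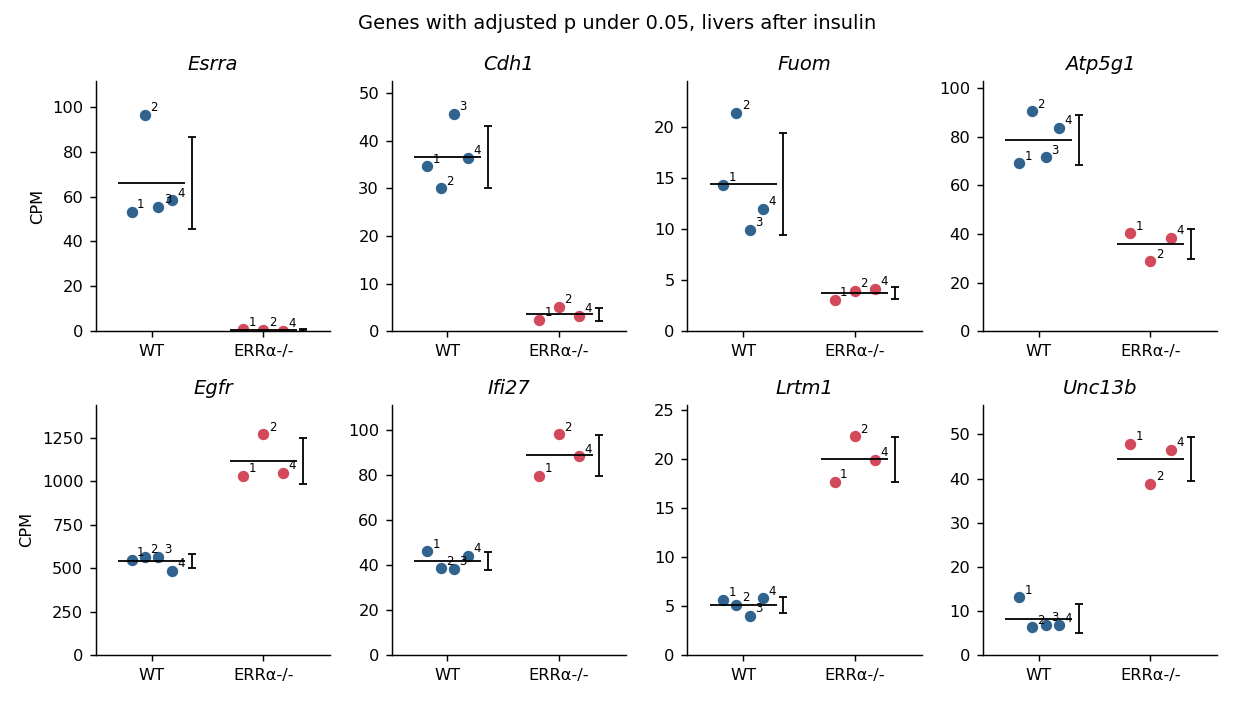
CPM of the 8 genes with an edgeR adjusted p under 0.05, in the 4 WT and 3 ERRα-/- livers after insulin. Points are livers with their numbers, lines are group means and error bars are 1 SD. No gene has overlapping groups, and Cdh1 lies between 30 and 45.6 CPM in WT livers and between 2.46 and 5.08 CPM in ERRα-/- livers.

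Leaving out WT liver 2 brought 40 further genes past the adjusted threshold, among them Scd1, Pck1, Cps1, Plin2, Bdh1, Junb and Cyp17a1 and the mitochondrial genes Sdhd, Cyc1, Cycs, Cox7b, Atp5c1 and Atp5o, described with their pathways below. A further 4 genes of the 40, Arrdc4, Tubb2a, Etfbkmt and Sult5a1, were chosen after their values were seen. Arrdc4, an arrestin-domain gene, had 11.1, 18.4, 12.5 and 12.3 CPM in WT livers and 24.5, 27.7 and 28.3 CPM in ERRα-/- livers. Tubb2a, a tubulin gene, had 99.6, 30.7, 75.4 and 89.6 CPM against 38.8, 32.6 and 39 CPM. WT liver 2 was the WT liver nearest to the ERRα-/- livers in the former and lay below them all in the latter. Etfbkmt, which encodes a lysine methyltransferase of electron transfer flavoprotein, had 21.4, 42.9, 21.4 and 21.8 CPM against 49.5, 45.1 and 46.8 CPM, with WT liver 2 close to the ERRα-/- livers. Sult5a1, a sulfotransferase gene, was higher in ERRα-/- livers by a log2 fold change of 2.14 (SE 0.32) with all 7 livers.

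The counts of DEGs in the gene lists below stand against these shares over all genes tested: 5.42% lower and 4.57% higher with all 7 livers, and the larger 7.19% lower and 5.99% higher without WT liver 2. Nuclear genes of oxidative phosphorylation were lower as a group. Of 80 such subunit genes tested, 78 had a log2 fold change below 0, 62 were DEGs with lower expression and none was a DEG with higher expression, and the median log2 fold change was −0.58, against −0.021 over all genes tested. In 59 of the 80 the groups did not overlap, against 12.4% of all genes tested. Only Atp5g1 passed the adjusted threshold by edgeR with all 7 livers. WT liver 2 lay outside the range of the other 6 livers for 18 of 18 ATP synthase and 27 of 36 complex I subunits, and for 6544 of all 13665 genes tested. Without it the median was −0.45, with 60 DEGs with lower expression and 7 genes that fell. The direction of each complex's median was the same in each alternative run.

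By complex, the median log2 fold change was −0.46 for 36 complex I subunits (22 DEGs, all lower), −0.56 for 4 complex II subunits (3 lower), −0.63 for 9 complex III subunits (8 lower), −0.72 for cytochrome c and 12 further complex IV subunits (13 lower) and −0.73 for 18 ATP synthase subunits (16 lower). Without WT liver 2 the medians were −0.35, −0.44, −0.50, −0.70 and −0.59. The ATP synthase list counts Atpif1, which encodes an inhibitor of the enzyme and was not a DEG (log2 fold change −0.67). Complex I passes electrons from NADH to ubiquinone. Its accessory subunit Ndufa5 had 30, 39.6, 24 and 29.7 CPM in WT livers and 15.3, 9.05 and 14.3 CPM in ERRα-/- livers, without overlap. The core subunit Ndufs1, which carries iron-sulfur clusters, was 1.37-fold lower (log2 fold change −0.45, SE 0.12), and Ndufv1, which binds NADH, was 1.57-fold lower.

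In complex II, Sdhd, the membrane anchor of succinate dehydrogenase, had 156, 234, 157 and 156 CPM in WT livers and 92.2, 75.2 and 87.8 CPM in ERRα-/- livers. WT liver 2 was far above the other WT livers, and the log2 fold change was −1.05 with it and −0.88 (SE 0.11, edgeR adjusted p = 0.022) without it, when Sdhd passed the threshold. The catalytic subunit Sdha was not a DEG with all 7 livers (log2 fold change −0.27, SE 0.14) and was one with lower expression without WT liver 2 (−0.34, SE 0.11). In complex III, Cyc1, which encodes cytochrome c1, had 151, 212, 135 and 139 CPM against 85.1, 83.8 and 88.6 CPM. Cycs, the mobile electron carrier cytochrome c, which has near-identical copies in the genome whose reads can be hard to assign, had 81.1, 91.7, 69.6 and 82 CPM against 44, 40.8 and 45.2 CPM. Its log2 fold change was −0.90 (SE 0.13) with all 7 livers and −0.84 (SE 0.11) without WT liver 2. Cox7b, Cox5a and Cox4i1, subunits of cytochrome c oxidase, were 1.82-, 1.81- and 1.6-fold lower. Of the ATP synthase genes, Atp5o, a subunit of the peripheral stalk, had 74.5, 89.9, 72.9 and 76.7 CPM against 43.7, 33.2 and 42.5 CPM. Atp5c1, the γ subunit, had 176, 227, 158 and 176 CPM against 96.4, 96.9 and 104 CPM, and fell without WT liver 2 (log2 fold change −0.78, SE 0.11, edgeR adjusted p = 0.0249). The catalytic subunit gene Atp5b had a smaller difference, from 1070 ± 138 CPM (SD, n = 4) to 747 ± 32.7 CPM (SD, n = 3).

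**Figure D3:**
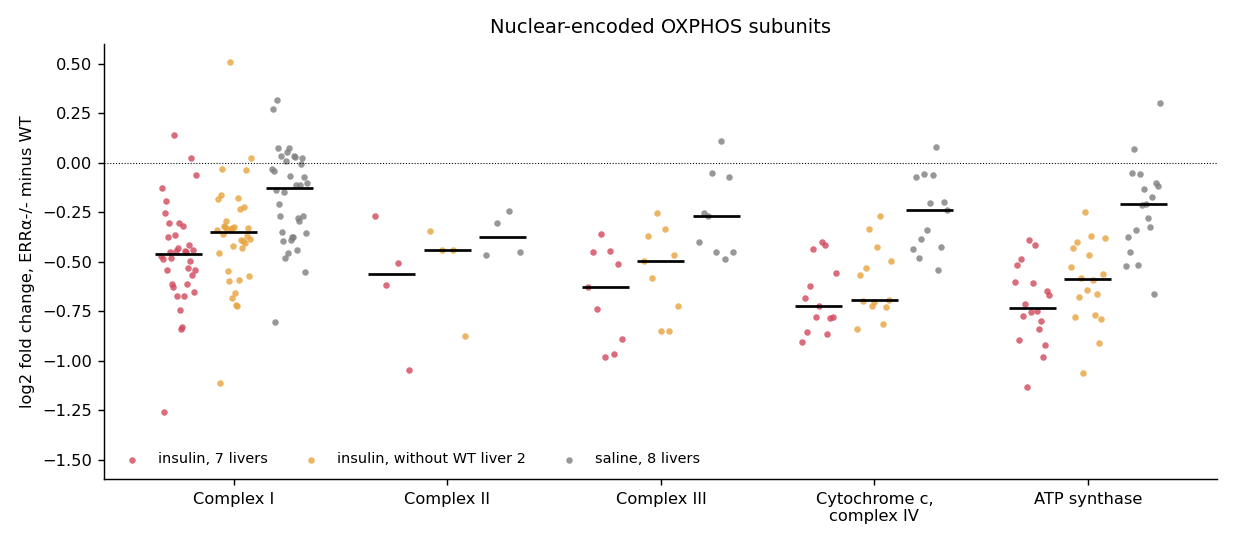
Log2 fold change (ERRα-/- minus WT) of each nuclear-encoded OXPHOS subunit gene, by complex, after insulin with all 7 livers, after insulin without WT liver 2 and after saline in 8 other livers. Points are genes and black lines are medians. The medians after insulin with all 7 livers lie between −0.46 (complex I) and −0.73 (ATP synthase).

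The same subunits were compared in saline livers, which share no mouse with the insulin livers. There 34 of 81 were DEGs with lower expression and 1 was a DEG with higher expression, with a median log2 fold change of −0.24, against a share of 5.3% for lower and 5.98% for higher DEGs and a median of 0.0037 over all genes tested. The difference between the insulin and saline effects was tested as a genotype by insulin interaction, in which 8.79% of all 14670 genes tested had an unadjusted p under 0.05. Of the 81 subunits, 23 had such a p with a more negative effect after insulin, and by edgeR 0 passed adjustment. This test includes WT liver 2, which was high in these genes. Without it 17 of the 81 had such a p, all with a more negative effect after insulin, and by edgeR 0 passed adjustment, against 8.35% of all 14567 genes tested. The median difference over the 81 was −0.37 with that liver and −0.30 without it. Other lists were shifted in the same direction. Of 42 cytosolic ribosomal protein genes, 12 had such a p with a more negative effect and 1 with a more positive (median −0.38). Of 75 mitochondrial ribosomal protein genes, 19 had one, all more negative (median −0.315). Without WT liver 2 the more negative counts were 6 and 11. After saline, 35 of the 42 cytosolic genes were DEGs with higher expression. Usmg5, an ATP synthase accessory subunit, had an interaction log2 difference of −0.81 (SE 0.23, edgeR adjusted p = 0.422), and Cox4i1 one of −0.60 (SE 0.19, edgeR adjusted p = 0.445). They were −0.68 and −0.48 without WT liver 2.

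ERRα binds DNA at ERR response elements. Their extended form, TNAAGGTCA, was searched on both strands of the RefSeq promoter table (GRCm38.p6, 250 bases before to 50 after each start), in which 421 of 32851 promoters (1.28%) held them. Among genes tested with a promoter in the table, 97 of 10194 (0.952%) held them, among DEGs with lower expression 10 of 597 (1.68%), among DEGs with higher expression 7 of 472 (1.48%), and among OXPHOS subunits 3 of 67 (4.48%), namely Atp5g3, Ndufb4 and Sdhd. Of the 48 genes that passed the adjusted threshold without WT liver 2, 20 of 25 lower and 16 of 23 higher genes had a promoter in the table, and 1 of these, Sdhd, held them. Its promoter is shown because the gene fell without WT liver 2; it lies at chr9:50603800-50604099 and is written 5′ to 3′ on the gene's minus strand, with the match in capitals, which here is on the opposite strand to the gene.
Sdhd: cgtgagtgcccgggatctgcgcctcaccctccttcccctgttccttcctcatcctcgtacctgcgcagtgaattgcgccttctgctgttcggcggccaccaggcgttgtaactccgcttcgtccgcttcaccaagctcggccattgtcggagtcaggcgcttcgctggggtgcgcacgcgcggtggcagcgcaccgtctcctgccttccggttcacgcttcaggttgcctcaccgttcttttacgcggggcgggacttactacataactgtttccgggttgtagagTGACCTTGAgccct
A match describes the letters of this window and not a binding site.

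Transcripts of the mitochondrial genome depended on WT liver 2. Of 12 tested, none was a DEG with all 7 livers and 7 had a log2 fold change below 0, and the median log2 fold change was −0.039 with all 7 livers and −0.20 without WT liver 2, when all 12 lay below 0 and 3, among them mt-Nd1, were DEGs with lower expression. In saline livers 12 of 12 lay below 0 and 6 were DEGs with lower expression, with a median of −0.29, beside −0.24 for the nuclear subunits there. The sign of the median was not stable: after insulin it was 0.029, 0.012 and 0.070 without WT liver 1, 3 or 4 and 0.015 without ERRα-/- liver 2. mt-Co1, a complex IV subunit, had 10690, 6239, 11080 and 11890 CPM in WT livers and 9685, 11480 and 11640 CPM in ERRα-/- livers. WT liver 2 was the lowest of the 7 and WT liver 4 the highest, and WT livers 1 and 3 lay among the ERRα-/- livers. For mt-Nd1 and mt-Cytb the log2 fold changes were −0.096 (SE 0.21) and −0.0079 (SE 0.22) with all 7 livers. The share of counts on the mitochondrial genome was 3.49 ± 1.08% in WT livers (SD, n = 4) and 3.29 ± 0.214% in ERRα-/- livers (SD, n = 3), a difference of −0.20 percentage points (two-sided exact permutation p = 0.829, the smallest possible being 0.0286). Without WT liver 2 the shares were 4.03 ± 0.144% and 3.29 ± 0.214%, each WT liver above each ERRα-/- liver, and the two-sided exact permutation p was 0.1, the smallest that 3 against 3 livers can give.

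Of 16 genes of the TCA cycle, 8 were DEGs with lower expression and none was a DEG with higher expression (median log2 fold change −0.31). There were 8 lower and 1 higher without WT liver 2 (median −0.26). Idh3b and Idh3a, subunits of NAD-dependent isocitrate dehydrogenase, and Mdh1 were 1.57-, 1.64- and 1.6-fold lower. Mdh1, listed here, encodes the cytosolic malate dehydrogenase and not the mitochondrial enzyme of the cycle. Cs, the citrate synthase gene, was not a DEG with all 7 livers (log2 fold change −0.27, SE 0.13) and was a DEG with lower expression without WT liver 2 (−0.29, SE 0.12). Of 13 genes of the pyruvate dehydrogenase complex and its regulators, 3 were DEGs with lower expression, including the E2 subunit Dlat and the kinase Pdk2, and 4 without WT liver 2. The kinase Pdk4 was not a DEG, with 26.2, 10.3, 62.3 and 24.2 CPM in WT livers and 19.6, 28.4 and 22.4 CPM in ERRα-/- livers.

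Of 25 genes of mitochondrial protein import, 10 were DEGs with lower expression (median −0.24), and 9 without WT liver 2 (median −0.25). Timm17a and Timm23, channel components of the inner membrane, were 1.61- and 1.57-fold lower, and the outer-membrane pore gene Tomm40 was not a DEG (log2 fold change −0.20, SE 0.16). Of 75 mitochondrial ribosomal protein genes, 14 were DEGs with lower expression (median −0.28), among them Mrps35 and Mrpl12, against 5.42% of all genes tested, and 9 without WT liver 2 (median −0.17), against 7.19%. Tfam, which packages mitochondrial DNA, was not a DEG (log2 fold change −0.18, SE 0.19), nor was the fusion gene Mfn2 with all 7 livers (−0.25, SE 0.12). Without WT liver 2 Mfn2 was a DEG with lower expression (−0.28, SE 0.11).

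Of 33 fatty acid oxidation genes tested, none was a DEG with lower expression and 1, the microsomal ω-hydroxylase gene Cyp4a10, was a DEG with higher expression, with a median log2 fold change of −0.057. Without WT liver 2 there were 4 DEGs with lower and 1 with higher expression and the median was −0.098, and without WT liver 4 the median was 0.014. Cpt1a, the carnitine palmitoyltransferase that admits fatty acids to mitochondria, had 936 ± 177 CPM in WT livers (SD, n = 4) and 1131 ± 37.3 CPM in ERRα-/- livers (SD, n = 3). The dehydrogenase genes Acadm and Acadl had log2 fold changes of −0.11 (SE 0.16) and −0.095 (SE 0.13). Among 5 ketogenesis genes, 1 was a DEG, with lower expression, and 2 were DEGs without WT liver 2. The gene called with all 7 livers, Bdh1, which interconverts acetoacetate and β-hydroxybutyrate, had 194, 126, 210 and 210 CPM in WT livers and 89.7, 112 and 125 CPM in ERRα-/- livers. It fell without WT liver 2, with a log2 fold change of −0.91 (SE 0.14, edgeR adjusted p = 0.0276).

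Of 12 gluconeogenesis genes, 9 had a log2 fold change above 0 and 3 below. With higher expression 3 were DEGs, with lower expression none, and by edgeR 0 passed adjustment with all 7 livers. Over all genes tested 4.57% were DEGs with higher expression, and 5.99% without WT liver 2. The median was 0.30 with all 7 livers, 0.18 without ERRα-/- liver 2 and 0.45 without WT liver 2, when 8 were DEGs with higher expression. Pck1, which encodes cytosolic phosphoenolpyruvate carboxykinase, had 2582, 3925, 3027 and 2940 CPM in WT livers and 5222, 5061 and 5621 CPM in ERRα-/- livers. All ERRα-/- livers lay above all WT livers, of which liver 2 was the highest. The log2 fold change was 0.77 (SE 0.15, edgeR adjusted p = 0.163) with all 7 livers and 0.90 (SE 0.11, edgeR adjusted p = 0.0159) without WT liver 2, when Pck1 rose. In saline livers it was 0.082, and the interaction difference was 0.69 (SE 0.20, edgeR adjusted p = 0.422), or 0.82 without WT liver 2. Pcx, pyruvate carboxylase, and Got1, an aminotransferase, were 1.25- and 1.33-fold higher. G6pc, the catalytic subunit of glucose-6-phosphatase, overlapped between the groups, with 434, 596, 266 and 302 CPM against 364, 636 and 521 CPM. Its log2 fold change was 0.34 (SE 0.28) with all 7 livers, and without WT liver 2 it was a DEG with higher expression (0.60, SE 0.23). With a liver left out the log2 fold change of G6pc ranged from 0.15 to 0.60.

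Of 15 lipogenic genes, 5 had a log2 fold change above 0 and 3 were DEGs with lower expression, and without WT liver 2 there were 4 such DEGs (median log2 fold change with all 7 livers −0.087, and between −0.19 and −0.023 with a liver left out). Scd1, which encodes stearoyl-CoA desaturase, had 3208, 2222, 6800 and 5264 CPM in WT livers and 1198, 1095 and 1262 CPM in ERRα-/- livers. The groups did not overlap, and the WT livers spread widely, with liver 2 the lowest of them. The log2 fold change was −1.88 (SE 0.33, edgeR adjusted p = 0.119), and without WT liver 2 Scd1 fell by 2.1 (SE 0.24, edgeR adjusted p = 0.014). Srebf1, which encodes SREBP-1, had 59.8, 28.6, 27.3 and 42.7 CPM against 14.6, 20.1 and 20 CPM, a log2 fold change of −1.12 (SE 0.27). Thrsp was 1.95-fold lower with overlapping groups and WT liver 2 the highest at 66.7 CPM, and without that liver it was no longer a DEG (log2 fold change −0.48, SE 0.24). Fasn, the fatty acid synthase gene, did not differ beyond its spread (log2 fold change −0.16, SE 0.27). Plin2, the main coat protein of hepatic lipid droplets, had 541, 292, 574 and 574 CPM in WT livers and 327, 352 and 364 CPM in ERRα-/- livers, so that WT liver 2 lay below all ERRα-/- livers. Without that liver Plin2 fell by 0.69 (SE 0.10, edgeR adjusted p = 0.0276). In saline livers its log2 fold change was 0.59, and the interaction difference was −1.09 (SE 0.29, edgeR adjusted p = 0.422), or −1.27 without WT liver 2. Lpin1, a phosphatidate phosphatase gene, was 1.71-fold higher.

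Of 22 genes of insulin receptor signaling and FoxO feedback, 4 were DEGs with higher and 1, Akt1, was a DEG with lower expression (median log2 fold change 0.15). Over all genes tested the shares were 4.57% higher and 5.42% lower. The counts were 5 and 1 without WT liver 2, against 5.99% and 7.19%, and the median was 0.25 without WT liver 3 and 0.23 without WT liver 4. Irs2, an insulin receptor substrate that FoxO1 induces, had 46.7, 47.9, 29.9 and 53.5 CPM in WT livers and 48.5, 81.3 and 72.6 CPM in ERRα-/- livers, with overlap. Foxo3 was 1.56-fold higher, with a log2 fold change of 0.64 with all 7 livers and 0.40 without ERRα-/- liver 2. Igfbp1, a secreted binding protein of insulin-like growth factors, had 766, 1540, 297 and 437 CPM against 937, 2209 and 1504 CPM. It was not a DEG with all 7 livers (log2 fold change 1.03, SE 0.48) and was one with higher expression without WT liver 2 (1.63, SE 0.37). In saline livers its log2 fold change was larger, 2.10 (SE 0.51), and it was a DEG there. The interaction difference was −1.06 (SE 0.78, edgeR adjusted p = 0.71), or −0.46 without WT liver 2. With saline and insulin livers scaled together, Igfbp1 had 167, 200, 154 and 77.6 CPM in WT livers after saline. After insulin it had 773, 1539, 301 and 442 CPM, so it was not lower in WT livers given insulin. Of 17 genes of glycolysis and glucose uptake, 7 were DEGs with lower and 2 with higher expression (median −0.29), and 6 and 2 without WT liver 2. Eno1 and Pgk1, which act in lower glycolysis, were 1.63- and 1.54-fold lower. Pklr, liver pyruvate kinase, was not a DEG (log2 fold change −0.13, SE 0.14). Of 23 cholesterol genes, 3 were DEGs with lower expression (median −0.23), among them Hmgcs1 and Insig1, and without WT liver 2 there were 6 (median −0.25). The median was −0.084 without WT liver 1 and −0.12 without ERRα-/- liver 1. Insig1 had 131 CPM in WT liver 1 and 73.1, 65.5 and 60.3 CPM in WT livers 2, 3 and 4.

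**Figure D4:**
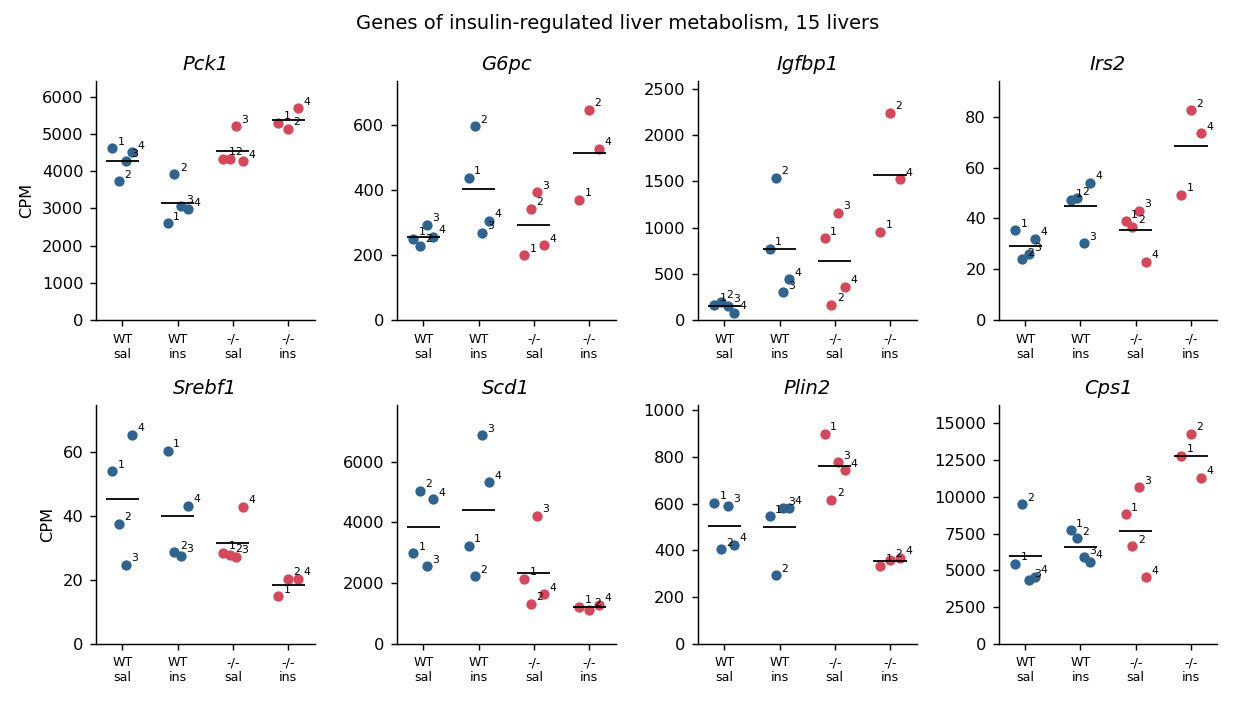
CPM of 8 metabolic genes in the 15 livers of the insulin experiment, scaled together, by genotype and injection (sal, saline; ins, insulin). Points are livers with their numbers and lines are group means. Pck1 is higher in each ERRα-/- liver after insulin than in each WT liver after insulin, and Scd1 and Srebf1 are lower.

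Amino acid catabolism and zonated hepatocyte genes were among the DEGs with higher expression. Of 21 genes of the urea cycle and amino acid catabolism, 5 were DEGs with higher expression and none was a DEG with lower expression (median log2 fold change 0.20), against 4.57% higher over all genes tested, and without WT liver 2 there were 12 (median 0.37), against 5.99%. Cps1, the mitochondrial carbamoyl phosphate synthase that starts the urea cycle, had 7655, 7178, 5826 and 5500 CPM in WT livers and 12580, 14070 and 11140 CPM in ERRα-/- livers. It rose without WT liver 2 (log2 fold change 0.99, SE 0.15, edgeR adjusted p = 0.0283). Hal, histidase, was 1.48-fold higher. Of 15 pericentral hepatocyte genes, 3 were DEGs with higher expression (median 0.23), namely the glutamate transporter Slc1a2, the ornithine aminotransferase Oat and glutamine synthetase Glul, at 1.57-, 1.52- and 1.27-fold. Leaving out WT liver 2 gave 6 (median 0.19), and without ERRα-/- liver 1 the median was 0.15. Of 13 periportal genes, 3 were DEGs with higher expression, and 1, Cdh1, fell. Leaving out WT liver 2 gave 6 with higher expression, of which Pck1 rose. Of 21 P450-related genes of drug metabolism, 4 were DEGs with higher expression (median 0.21, and 0.095 without WT liver 1), and 5 without WT liver 2, including the P450 reductase Por at 1.5-fold and Cyp2b10, with 5.69, 22.1, 18.9 and 15.9 CPM against 47.3, 51 and 21.3 CPM.

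Sex-biased liver genes were counted as a further group. Of 16 male-biased genes, 2 were DEGs with lower and 1 with higher expression after insulin (median log2 fold change 0.019, which was −0.015 under upper-quartile scaling and between −0.078 and 0.24 with a liver left out). Hsd3b5 and Cyp2u1 were 2.06- and 2.14-fold lower. Hsd3b5 had 11.9 CPM in WT liver 1 and 5.45, 5.22 and 4.13 CPM in WT livers 2, 3 and 4, against 2.43, 3.62 and 3.67 CPM, and its log2 fold change was −1.04 with all 7 livers and −0.61 without WT liver 1. After saline 6 male-biased genes were DEGs with lower expression and the median of that list was −0.80. Of 8 female-biased genes tested, Cyp17a1, which encodes the steroid 17α-hydroxylase, was the DEG, with 77.8, 178, 57.1 and 57.6 CPM in WT livers and 265, 420 and 177 CPM in ERRα-/- livers. It rose without WT liver 2 (log2 fold change 2.16, SE 0.29, edgeR adjusted p = 0.024), and after saline its log2 fold change was 2.57. Without WT liver 2 the female-biased list also held 1 DEG with lower expression, and after saline 3 of 7 tested were DEGs with higher expression (median 1.03).

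Immediate early genes included several with higher expression. Of 14 tested, 6 were DEGs with higher and 1 with lower expression (median log2 fold change 0.16). Over all genes tested the shares were 4.57% and 5.42%. The median was 0.0057 without WT liver 3 and 0.55 without WT liver 4. Egr1, a growth-factor-induced transcription factor gene, had 14.6, 24.1, 16.2 and 19.7 CPM in WT livers and 42.4, 209 and 32.1 CPM in ERRα-/- livers, with ERRα-/- liver 2 far above the rest. Its log2 fold change was 2.34 with all 7 livers and 1.00 without that liver. Junb was 2.44-fold higher and rose without WT liver 2 (log2 fold change 1.58, SE 0.22, edgeR adjusted p = 0.0249), and the mRNA decay factor gene Zfp36 was 2.38-fold higher. Fos, at 0.268 to 4.46 CPM, was not a DEG. In saline livers 7 of 13 immediate early genes tested were DEGs with higher expression and none with lower (median 0.66). Over all genes tested there, 5.98% were DEGs with higher expression. The log2 fold changes after saline were 1.72 for Egr1, 1.73 for Junb and 2.3 for Fos, each a DEG there. Of 35 interferon-stimulated genes, 10 were DEGs with lower expression after insulin and none was a DEG with higher expression (median −0.32, and −0.44 without WT liver 2). Ifit1, Isg15 and Bst2 were 1.66-, 1.79- and 1.5-fold lower, and Irf7 was not a DEG. Ifi27 lies outside that list. Of 16 acute phase genes, 1 was a DEG, with higher expression, and without WT liver 2 there were 2 with higher and 1 with lower expression, and the median of −0.51 turned to 0.11. Saa1, serum amyloid A1, had 921, 2040, 17.4 and 49.5 CPM in WT livers and 63, 366 and 154 CPM in ERRα-/- livers, and Lcn2, lipocalin 2, had 208, 262, 5.08 and 9.14 CPM against 36, 64.9 and 34 CPM. In both, WT livers 1 and 2 were high and WT livers 3 and 4 were the lowest of all 7. After saline, on the scale of all 15 livers, Saa1 had 754, 2079, 25.5 and 92.8 CPM in the WT livers. Lcn2 had 211, 280, 1.42 and 20 CPM there, so WT livers 1 and 2 were again high in both genes. Among the ERRα-/- saline livers, liver 4 was the highest in both. The reason for this split by number was not tested.

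Further gene groups were counted against a share over all genes tested of 5.42% for lower and 4.57% for higher DEGs. Of 27 mitochondrial carrier genes, 7 were DEGs with lower and 2 with higher expression, of 24 genes of mitochondrial DNA upkeep and dynamics 5 were lower, of 13 mitochondrial chaperone and protease genes 1 was lower, and of 20 NRF2 and antioxidant genes 4 were lower. The carriers had 5 lower and 4 higher DEGs without WT liver 2. Of 24 lipid droplet and lipoprotein genes, 3 were DEGs with lower and 2 with higher expression, and without WT liver 2 there were 6 with lower expression, of which Plin2 fell, and 3 with higher. Of 14 bile acid genes 2 were higher. Among 20 genes of the integrated stress response, 20 cell cycle genes and 42 cytosolic ribosomal protein genes there were 2, 2 and 1 DEGs. Of the 42 cytosolic ribosomal protein genes, 17 had a log2 fold change above 0 with all 7 livers and 40 without WT liver 2. By edgeR, 0 of 19 clock genes, 31 proteasome subunit genes and 14 genes of haem synthesis and iron were DEGs.

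**Figure D5:**
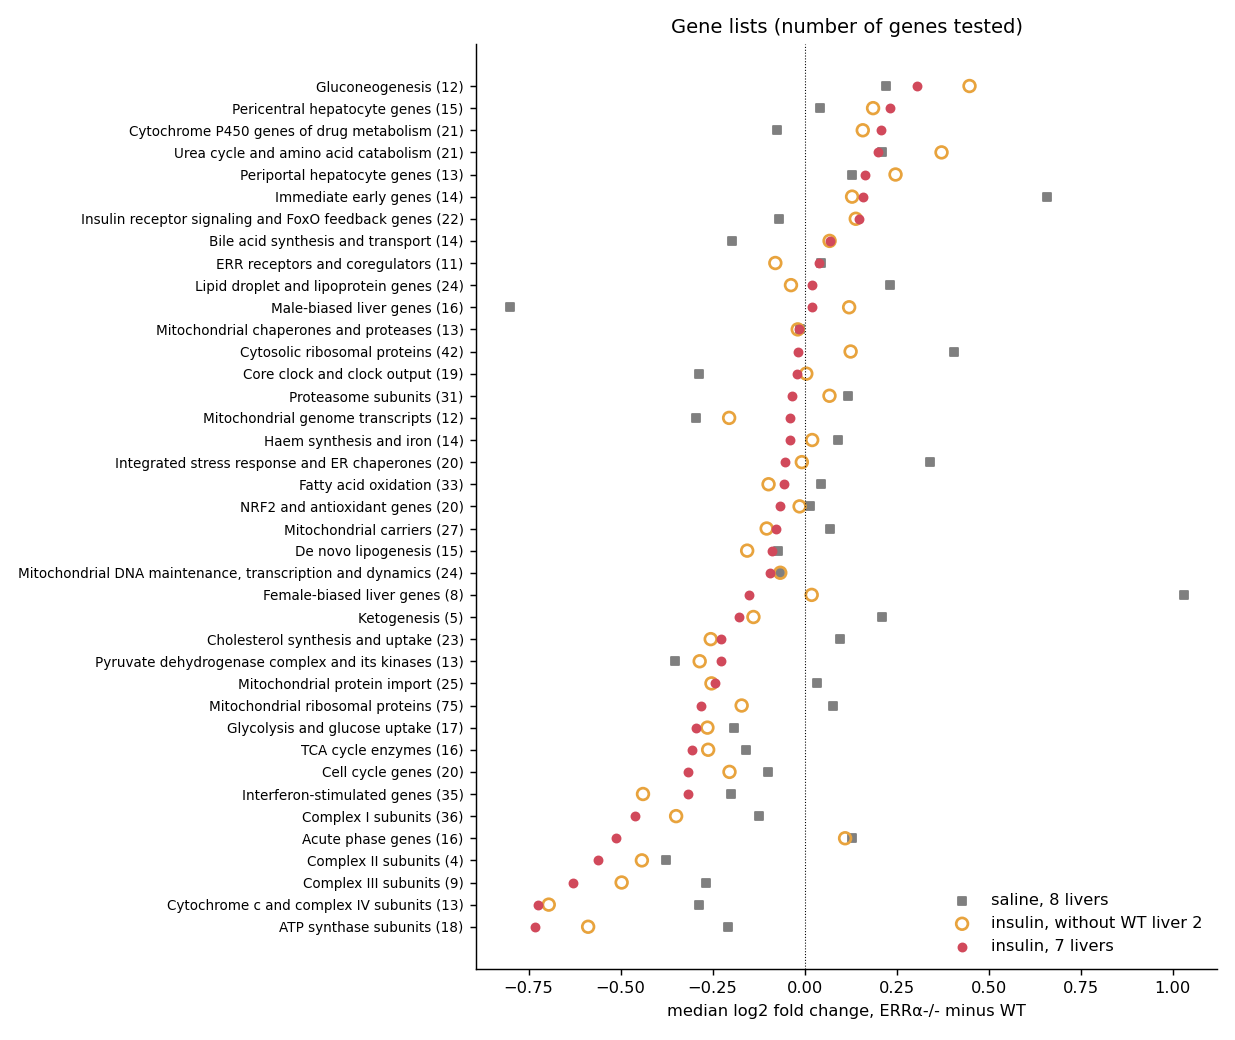
Median log2 fold change (ERRα-/- minus WT) of each gene list, with the number of genes tested after insulin in parentheses, after insulin with all 7 livers, after insulin without WT liver 2 and after saline. Leaving aside lists of cell-type markers, the lists run from ATP synthase subunits at −0.73 to gluconeogenesis at 0.30 with all 7 livers.

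The genotype difference after insulin was set beside that in saline livers. Among 13159 genes tested in both, 1336 were DEGs after insulin and 1509 after saline, and 272 were DEGs in both, 20.4% of the former and 18% of the latter. Of the 272, 236 had the same direction (149 lower and 87 higher) and 36 the opposite. Across all 13159 genes the sign was the same in 52.4%, and among the insulin DEGs in 65.4%. Genes are not independent replicates, so these shares are descriptions. The interaction had 1289 genes with an unadjusted p under 0.05 and 0 with an adjusted p under 0.05 by edgeR, or 1216 and 0 without WT liver 2; DESeq2 gave 20 past adjustment. The 6 genes with the smallest interaction p had log2 fold changes of opposite sign after insulin and after saline, which choosing genes by that p favours. Crip2, a LIM-domain protein gene, had the smallest, with an interaction log2 difference of −1.31 (SE 0.24, edgeR adjusted p = 0.389). On the scale of all 15 livers it had 37.2, 34.2, 35.3 and 51.8 CPM in WT and 28.2, 23.3 and 22.3 CPM in ERRα-/- livers after insulin. After saline it had 28.5, 30.7, 31.4 and 30.8 CPM in WT and 43.8, 35.4, 47.4 and 61 CPM in ERRα-/- livers, so the order of the genotypes was the reverse with no overlap in either. Stk35, a kinase gene, Dlc1, a GTPase-activating protein gene, Mia3, a cargo receptor gene of the endoplasmic reticulum, and Bicral, a chromatin remodeling subunit gene, had positive interaction differences of 0.78, 0.90, 0.77 and 1.06. The ribosomal protein gene Rpl36 had −0.75, and its groups overlapped after insulin, where it was not a DEG (log2 fold change −0.21, SE 0.15). In the order named, the 6 differences were −1.38, 0.74, 0.82, 0.70, 0.91 and −0.65 without WT liver 2. Mia3 was a DEG after insulin with all 7 livers and not without WT liver 2.

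In livers with stabilized ERRα, the genes lower in ERRα-/- livers were not shifted up as a group. Of 692 DEGs with lower expression after insulin that were also tested there, 316 had higher and 376 lower expression in ERRα3SA than in WT livers, with a median log2 fold change of −0.013, against 0.0014 over 12614 genes tested in both. Of 610 DEGs with higher expression after insulin, 366 had higher and 244 lower expression there, with a median of 0.036. The median over the OXPHOS subunits was −0.049. Interferon-stimulated genes, 10 of which were DEGs with lower expression in ERRα-/- livers after insulin, lay higher in ERRα3SA livers in 35 of 35, with 29 DEGs and a median of 0.63, against a share of 2.5% for higher DEGs over all 13339 genes tested (2.38% for lower). Of 16 acute phase genes, 16 lay higher there, with 5 DEGs and a median of 0.71. That comparison had 651 DEGs and, by edgeR, 0 genes with an adjusted p under 0.05, with 996 at an unadjusted p under 0.05; DESeq2 gave 43 past adjustment. Those mice were of another line and their labels give no treatment, and the values stand side by side without a test between them.

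Genes near the deleted locus were counted separately, because a targeted allele can carry linked sequence. Within 5 Mb of Esrra on chromosome 19, 22 of 208 genes tested were DEGs (10.6%), 13 lower and 9 higher, against 13.2% on the rest of that chromosome and 9.97% on the rest of the genome. Several are genes already described, such as Ndufv1 and Pcx, or of the same pathway, such as Cox8a and Ndufs8. Peli3, a ubiquitin ligase gene, was 3.46-fold lower at 0.685 ± 0.153 CPM in ERRα-/- livers (SD, n = 3), and Vegfb, a vascular growth factor gene, was 1.78-fold lower. The noncoding RNA Neat1 and Ccdc88b were 1.69- and 2.18-fold higher. Prdx5, a peroxiredoxin gene that ends within 0.000871 Mb of Esrra, had 141, 225, 127 and 129 CPM in WT livers and 116, 97.6 and 122 CPM in ERRα-/- livers. It was a DEG with lower expression with all 7 livers and not without WT liver 2 (log2 fold change −0.24, SE 0.12). Without ERRα-/- liver 2, 12 genes near Esrra were DEGs. Over all genes that fit had 818 DEGs among 14151 tested, against 1365 among 13665 with all 7 livers.

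The tissue was checked by markers of its cell types. The 7 hepatocyte markers, led by Alb, summed to 81100 to 92300 CPM in WT and 102000 to 110000 CPM in ERRα-/- livers after insulin, and 2 of the 7 were DEGs with higher expression, and 4 without WT liver 2. Cps1, a member, is also counted above with the urea cycle genes. In bulk tissue, fewer cells of a type and less RNA per cell cannot be told apart. Markers of Kupffer cells (9 genes, led by Clec4f), sinusoidal endothelial cells (7, led by Stab1), stellate cells (7, led by Dcn) and cholangiocytes (6, led by Spp1) gave 1 DEG among them, and 2 without WT liver 2. Exocrine pancreas markers differed between livers: 4 of 6 were tested and all 4 were DEGs with lower expression, with Prss1 and Amy2a1 at 0. Their sum, led by Ctrb1, was 13.4, 82.9, 6.77 and 150 CPM in WT livers and 8.64, 5.68 and 6.21 CPM in ERRα-/- livers. In saline livers that sum was 916, 41.9, 4.02 and 1220 CPM in WT and 219, 25.8, 4.13 and 105 CPM in ERRα-/- livers. Skeletal muscle markers, led by Acta1, gave 2 DEGs with lower expression among 4 tested and summed to 3.56, 1.08, 74 and 0.83 CPM in WT livers and 5.46, 1.02 and 0.488 CPM in ERRα-/- livers. The part of these tissues in the DEGs, after insulin or after saline, was not tested. Markers of B cells, T and NK cells, neutrophils, erythroid cells and adipocytes held no DEGs with all 7 livers.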

How the data were processed

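RNA-seq counts of 7 livers were analysed, with 8 saline livers and 8 livers of the ERRα3SA experiment beside them. The deposited values are raw counts per gene. The authors made them with STAR, which aligned read pairs to mm10 and counted them by gene. The strand setting is not given in the sources used here, so overlapping genes, antisense genes and near-identical copies are uncertain. Depth was 35871419 to 40590962 counts per liver after insulin.

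Counts were normalized by TMM, filtered by filterByExpr and tested by edgeR 4.0.16 (quasi-likelihood test) in R 4.3.3, on the groups of a comparison, with Benjamini-Hochberg adjustment over all genes tested. DESeq2 1.42.0 was an alternative, as were other scalings, filters, groups in the fit, a replicate block and each liver left out. The SE given with an edgeR log2 fold change was derived from the test, as the absolute log2 fold change divided by the square root of the F statistic. CPM used TMM library sizes, and log2 CPM a prior count of 2. The test was also run on simulated counts, and the outcome is not reported here. Identifiers were given symbols and positions by GENCODE (GRCm38), which held 34490 of the 35275 identifiers. Lists were described by counts and medians. Every pair of replicates within the WT and ERRα-/- groups after insulin differed by more than sampling noise (chi-square per degree of freedom of at least 25.2). That each sample is a separate mouse is taken from the labels' numbering.

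Genes that could be described as results were Esrra; up to 12 rises and 12 falls with an adjusted p under 0.05, no overlap and a mean of at least 1 CPM; fixed members of each list and its 4 members with the smallest p; the 6 genes with the smallest interaction p; and DEGs within 5 Mb of Esrra. This gave 234 genes, of which 100 are described, together with 4 chosen after their values were seen. The members and lists were chosen with earlier results of these data known. Beyond this rule, the text names the leading members of cell-marker sums, marker genes at 0 counts and the OXPHOS genes whose promoters hold the motif, to identify those sets. Printing the Sdhd promoter extends the rule to the fit without WT liver 2. Results for some genes are not reported here.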

Additional observations from a re-analysis of the deposited data

Results flagged for a closer look

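In 4 WT livers after insulin, the gap between an extreme liver and its nearest neighbour was taken as a share of the range. For genes, log2(CPM + 1) was used. This ratio exceeded Dixon's 95% critical value of 0.83 for 12 of 104 genes described and for 2 library measures. For a single value chance gives about 1 in 20, but that rate does not apply to these genes as a set. Genes are not independent replicates, and 4 of the 104, Etfbkmt among them, were chosen after their values were seen. WT liver 2 was the extreme liver in 10 of the flagged genes and measures, and WT liver 1 in 4. For WT liver 2 the ratio was 0.875 for the share of counts on mitochondrial genome genes, 0.884 for the number of genes with counts, 0.847 for Esrra, 0.982 for Sdhd, 0.925 for mt-Cytb, 0.835 for mt-Co1, 0.84 for Bdh1, 0.912 for Plin2, 0.929 for Neat1 and 0.975 for Etfbkmt. It was high in Esrra, Sdhd, Neat1 and Etfbkmt and low in the others. For WT liver 1 the ratio was 0.947 for Ppargc1b and 0.896 for Unc13b, where it was high, and 0.861 for Tfam and 0.909 for Acadl, where it was low. Among the saline livers, ERRα-/- liver 3 had the highest share of counts on mitochondrial genome genes of its group, 3.91% against 3.16 to 3.21%, a ratio of 0.927.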

How the results depend on the processing

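The number of genes with an adjusted p under 0.05 after insulin was 8 by edgeR, 248 by DESeq2, 31 with no filter on low counts, 14 with at least 10 counts in every liver of a group and 96 with the 4 groups fitted together; with a liver left out it ranged from 3 to 48. DESeq2 without WT liver 2, chosen after seeing the data, gave 466. The number of DEGs ranged from 818 to 1778 with a liver left out, those with higher expression from 333 to 808 and those with lower expression from 485 to 970. Upper-quartile scaling gave 520 higher and 900 lower. The DEGs near Esrra ranged from 12 to 26. Without a filter the ERRα3SA livers had 1050 DEGs, and DESeq2 gave 20 genes past adjustment in the interaction. The causes were not tested.

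Of 104 genes described, 95 kept the direction of their log2 fold change in each of 14 alternatives in which they were tested. The other 9 were not DEGs in the edgeR fit with no liver left out. Of these, mt-Nd1 was a DEG with lower expression without WT liver 2. mt-Cytb was 0.00075 by DESeq2 and by RLE scaling, 0.00027 with the 4 groups together and −0.19 to 0.074 with a liver left out. With a liver left out the values ranged from −0.71 to 0.036 for Ppargc1b, from −0.044 to 0.89 for Esrrg, from −0.21 to 0.17 for Nrip1, from −0.27 to 0.012 for mt-Nd1, from −0.037 to 0.23 for mt-Co1, from −0.68 to 0.22 for Pdk4, from −0.41 to 0.12 for Fasn and from −2.13 to 0.031 for Fos. The difference in mitochondrial share ranged from −0.74 to 0.025 percentage points with a liver left out.

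Pairing by replicate number was checked only between the WT and ERRα-/- livers after insulin. Deviations from the group mean had correlations of −0.041, 0.089 and 0.058 for same-numbered livers. For differently numbered livers they lay between −0.109 and 0.0733. Whether livers of the same number share a batch or litter was not tested. With the number as a replicate block there were 1328 DEGs, 736 higher and 592 lower, and 8 genes with an adjusted p under 0.05; Nrip1 was 0.015, mt-Cytb 0.11 and Pdk4 0.29. The smallest library had 35871419 counts, and what depth limits was not tested.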
